A study of Mus musculus with 10 samples.

Results

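Red cell genes were followed across fetal gallbladder and cystic duct: 29 genes were listed by name for their place in red cell formation and sorted into 7 roles, from early transcription factors to globins. Of these, 28 were read by a probe set that the platform table assigns to that gene alone, and 27 passed the filter on dim genes, out of 14696 genes tested in all. Ahsp, which encodes a chaperone of alpha globin, was not analysed here, and the only probe set of Hba-a1, an adult alpha globin gene, lay below the filter. At this stage red cells form in the fetal liver and circulate in the blood, whereas the samples were biliary tissue of mouse embryos at 15 days post coitum. The 5 groups, each of 2 arrays, were B6 Sox17+/- gallbladder, B6 wild type gallbladder, ICR wild type cystic duct (the tube that drains the gallbladder), ICR Sox17+/- gallbladder and ICR wild type gallbladder. B6 is an inbred strain and ICR an outbred stock. Sox17+/- embryos carry an altered copy of Sox17, a transcription factor of the endoderm, and the labels do not describe the allele. Cystic duct came from ICR wild type embryos alone, and the labels give no animal or litter, so that p-values measure only the spread between these samples.

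In the embryo, red cells arise in successive waves. Primitive red cells from the yolk sac carry embryonic globins, and definitive red cells, made in the fetal liver and then the bone marrow, carry adult globins. The factors GATA1, TAL1 and KLF1 bind regulatory sites of many red cell genes and switch on heme synthesis, iron uptake, membrane skeleton and globin genes as the cell matures. Bulk tissue RNA holds whatever blood and neighbouring tissue was in the sample, and fewer red cells and less RNA per red cell cannot be told apart in it.

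Values are log2 signals after quantile normalization, so that a difference of 1 is a doubling of signal. Array medians of the deposited values ran from 5.51 to 6.07, and the narrowest interquartile range, 2.75, was that of cystic duct replicate 2. Sox17 itself read 8.03 and 7.91 in B6 Sox17+/- gallbladder, against 9.29 and 9.04 in B6 wild type, and 7.65 and 7.90 in ICR Sox17+/- gallbladder, against 9.52 and 9.24 in ICR wild type. The groups did not overlap in either strain, and the mean difference was -1.40 ± 0.17 (log2, standard error), but the adjusted p of 0.0542 in limma missed the threshold of 0.05. With the 8 gallbladder arrays alone, an alternative chosen after the data were seen, the adjusted p was 0.00403. The biliary epithelial gene Epcam read between 11.10 and 12.12 on the 10 arrays, and the hepatocyte gene Alb between 12.78 and 14.82.

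The upstream sequences of 6 of the genes are given because the list divides in its behaviour over the 10 arrays. Klf1, Gata1, Rhag and Kel follow the majority there, and Hbb-y and Hba-x do not. Over the 8 gallbladder arrays alone the split is weaker, with Hbb-y and Hba-x correlating with the other genes at 0.77 and 0.76. Each run is the 250 bases before the RefSeq start on GRCm38.p6, read 5′ to 3′ on the strand of the gene. Capitals mark GATAAG, a form of the site read by GATA factors, and CCNCNCCC, a CACCC-type motif of the kind KLF1 reads, on either strand. The motifs do not overlap in these runs. Other forms of either site were not searched, so that a run without capitals can still hold them. Klf1 lies at chr8:84901732-84901981 (plus strand), Gata1 at chrX:7967911-7968160 (minus strand), Rhag at chr17:40810899-40811148 (plus strand), Kel at chr6:41704326-41704575 (minus strand), Hbb-y at chr7:103853208-103853457 (minus strand) and Hba-x at chr11:32276350-32276599 (plus strand).
Klf1: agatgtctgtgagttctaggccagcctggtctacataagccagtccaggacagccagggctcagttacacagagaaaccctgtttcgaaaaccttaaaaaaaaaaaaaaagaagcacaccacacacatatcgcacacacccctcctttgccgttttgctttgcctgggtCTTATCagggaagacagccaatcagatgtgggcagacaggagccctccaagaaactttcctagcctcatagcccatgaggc
Gata1: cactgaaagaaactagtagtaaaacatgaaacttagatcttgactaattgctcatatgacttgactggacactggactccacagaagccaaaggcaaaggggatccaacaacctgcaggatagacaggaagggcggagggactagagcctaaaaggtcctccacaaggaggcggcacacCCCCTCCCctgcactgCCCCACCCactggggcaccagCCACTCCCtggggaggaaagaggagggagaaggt
Rhag: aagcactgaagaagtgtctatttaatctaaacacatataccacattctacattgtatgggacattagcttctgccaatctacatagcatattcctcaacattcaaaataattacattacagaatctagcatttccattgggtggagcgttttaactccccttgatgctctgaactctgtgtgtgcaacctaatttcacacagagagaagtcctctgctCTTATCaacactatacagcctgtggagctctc
Kel: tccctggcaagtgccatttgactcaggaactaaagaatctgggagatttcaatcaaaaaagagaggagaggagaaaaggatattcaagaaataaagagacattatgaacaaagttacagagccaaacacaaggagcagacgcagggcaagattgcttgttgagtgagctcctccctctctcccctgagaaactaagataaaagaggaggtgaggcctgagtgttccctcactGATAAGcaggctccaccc
Hbb-y: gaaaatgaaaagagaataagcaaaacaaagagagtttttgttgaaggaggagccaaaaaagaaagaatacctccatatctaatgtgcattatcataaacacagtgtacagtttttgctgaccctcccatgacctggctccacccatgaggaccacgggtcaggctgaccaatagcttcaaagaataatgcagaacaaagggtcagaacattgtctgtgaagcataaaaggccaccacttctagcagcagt
Hba-x: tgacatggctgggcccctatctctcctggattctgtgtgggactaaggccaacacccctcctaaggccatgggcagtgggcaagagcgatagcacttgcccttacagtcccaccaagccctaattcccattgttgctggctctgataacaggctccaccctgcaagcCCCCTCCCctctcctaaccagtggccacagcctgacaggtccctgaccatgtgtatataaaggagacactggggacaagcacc
GATAAG stands 1 time in the runs of Klf1, Rhag and Kel, reading on the opposite strand in Klf1 and Rhag, and in none of the Gata1, Hbb-y and Hba-x runs. Of the 21 tested genes with a promoter in the table, 10 held GATAAG in these windows, against 7.6% of 27025 genes with a promoter. CCNCNCCC was in 11 of the 21, against 48.5% of all, and Hba-x was among them. Besides Klf1, Rhag and Kel, the genes with GATAAG were Gfi1b, Epor, Cpox, Tfr2, Epb42, Rhd and Trim10. Of the 19 genes with a promoter that follow the majority (a correlation of 0.88 or more with the other genes over the 10 arrays), 10 held GATAAG and 9 did not. A match is a run of letters and not a measured binding site.

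Across the 10 arrays most of the list moved together. Expressed as the deviation from each gene's mean over the arrays, the median of the 27 genes was -0.03 and 0.69 in B6 Sox17+/- gallbladder, -0.32 and -0.31 in B6 wild type gallbladder, 2.17 and 0.59 in cystic duct, -0.03 and -0.72 in ICR Sox17+/- gallbladder and -0.58 and -1.20 in ICR wild type gallbladder. Cystic duct replicate 1 was therefore far above the other arrays, and ICR wild type gallbladder replicate 2 had the lowest median. The first was the highest of the 10 arrays for 24 of the 27 genes, against 19.5% of all genes tested, and the second was the lowest for 21, against 11.1%.

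**Figure D1:**
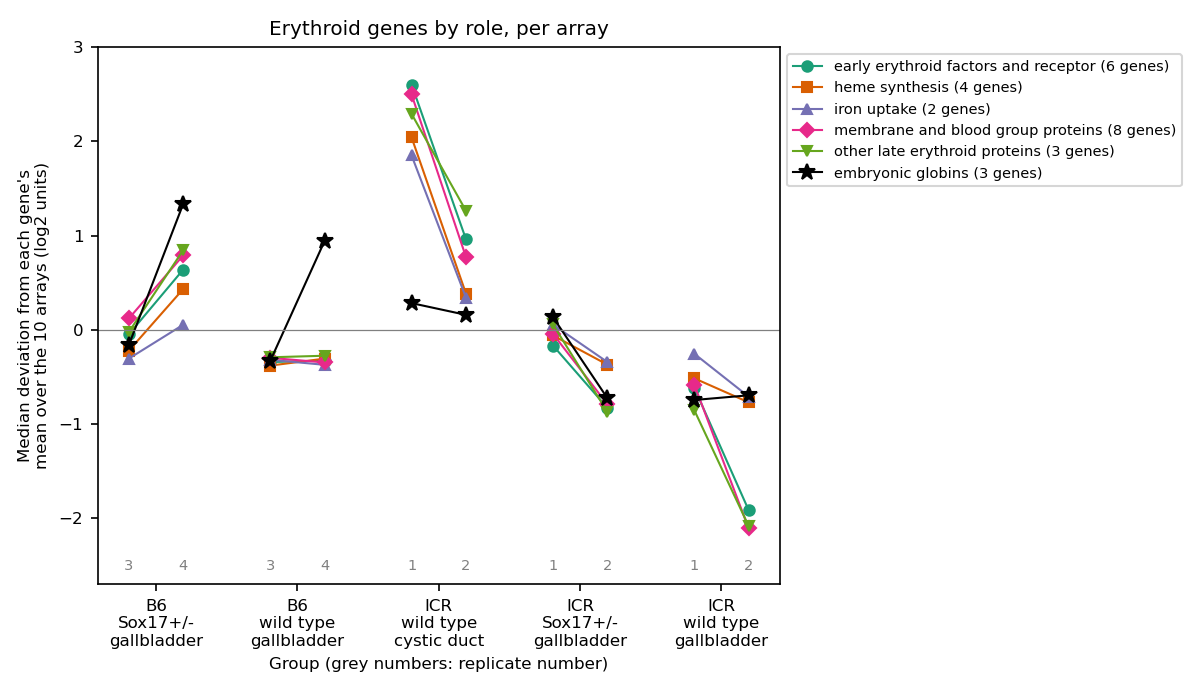
Median log2 deviation of each role group from its genes' own means over the 10 arrays (vertical axis) for each array, with lines joining the 2 replicates of a group. The embryonic globins (stars) are highest on replicate 4 of both B6 groups, at 1.34 and 0.94, while the early factors reach 2.60 on cystic duct replicate 1.

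The genes differed in how far they spanned. Rhag, an ammonium channel partner of the Rh blood group proteins, had the widest range among the arrays at 5.86 log2 units. Klf1 followed at 5.44 and Nfe2, a transcription factor of red cell genes, at 5.33. Sptb, the beta chain of red cell spectrin, had the narrowest at 1.45. Cpox (1.94) and Hba-x (1.97) were next. The correlation of each gene with the median of the others over the 10 arrays was 0.88 or more for 24 of the 27 genes. The exceptions were Hbb-y at 0.21, Hba-x at 0.44 and Hbb-b2 at -0.64. Over the 8 gallbladder arrays alone these were 0.77, 0.76 and 0.29, beside 0.70 for Fech and 0.75 for Tfr2. The arrays are few and share groups, so that these are descriptions.

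Replicates of a group lay apart as well. In ICR wild type gallbladder, replicate 1 exceeded replicate 2 for 25 of the 27 genes, where it did for 59.9% of all genes, with a median gap of 0.61. There, 12 genes of the list lay over 1 log2 unit lower in replicate 2 than in every other gallbladder array, against 0.211% of all genes. Over all genes, replicate 1 of this group stood further apart. By the same measure 459 genes were lower in replicate 1, 0 of them from the list, against 31 in replicate 2. Replicate 1 also had the highest median of the deposited values, 6.07. Rhag had the widest gap of that pair, reading 7.25 and 5.09. In ICR Sox17+/- gallbladder, replicate 1 was the higher for 26 genes, where 53.8% of all genes were. In B6 Sox17+/- gallbladder, replicate 4 was the higher for 27 of 27, where 59.1% of all genes were, and it was the highest of the 8 gallbladder arrays for 24 of them, where 16.7% of all genes had their highest value. The cystic duct pair was the furthest apart, with replicate 1 higher for 26 genes by a median of 1.43, where 51.4% of all genes were higher.

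Cystic duct read above gallbladder in ICR wild type for 25 of the 27 genes, where 48.1% of all genes did. After quantile normalization it did so without overlap for 25, where 21.7% of all genes did. In the values as deposited, Urod, Tfr2 and Sptb overlapped. There, cystic duct replicate 2 and gallbladder replicate 1 read 8.89 and 8.99 for Urod, 6.80 and 7.24 for Tfr2, and 6.16 and 6.38 for Sptb. Of 27 genes, 19 were higher at the threshold, where 5.73% of all genes tested were, and 1 was lower, where 8.61% were. At an unadjusted p under 0.05, 24 were higher, where 13.6% of all genes were. The median difference was 2.30 log2 units, against -0.03 over all genes. All 6 early factors and receptors, 3 of 4 heme synthesis genes, 1 of 2 iron uptake genes, 6 of 8 membrane genes and 3 of 3 other late genes were called higher, whereas 0 of 3 embryonic globins were.

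Among the early factors, Klf1, the master factor of the erythroid programme, read 12.56 and 11.27 in cystic duct, against 8.93 and 7.12 in gallbladder. Both duct arrays lay above both gallbladder arrays, and the difference was 3.89 ± 0.66 (log2, standard error), or 14.8-fold (adjusted p = 0.00924). Nfe2 read 10.71 and 8.75 in cystic duct, against 6.64 and 5.38 in gallbladder, a difference of 3.72 ± 0.66 (adjusted p = 0.0111). Gata1, which drives commitment to the red cell line, read 9.71 and 8.49 in cystic duct, against 6.46 and 5.20 in gallbladder, and differed by 3.27 ± 0.54 (adjusted p = 0.00846). None of these groups overlapped. Tal1, a partner of GATA1 in blood cells, differed by 2.84 (adjusted p = 0.034), Gfi1b, a repressor needed in red cell and platelet lineages, by 2.32 (adjusted p = 0.0165), and Epor, the erythropoietin receptor, by 1.90 (adjusted p = 0.00773).

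All 4 heme synthesis genes read higher in cystic duct, and 3 of 4 passed the threshold. Alas2, the red cell enzyme that starts the pathway, read 11.35 and 9.60 in cystic duct, against 8.70 and 8.53 in gallbladder, a difference of 1.87 ± 0.50 (adjusted p = 0.0439). Both duct arrays were above the gallbladder pair, replicate 1 by more. Fech, which puts iron into the ring, read 13.29 and 11.72 in cystic duct, against 10.82 and 10.64 in gallbladder (difference 1.77, adjusted p = 0.0339). Cpox, an enzyme of the middle of the pathway, differed by 1.51 (adjusted p = 0.0093). Urod, the enzyme before it, differed by 1.87, with an adjusted p of 0.0556. Of the iron uptake genes, Tfrc, the transferrin receptor, read 13.30 and 12.54 in cystic duct, against 11.60 and 11.04 in gallbladder, and differed by 1.60 ± 0.28 (adjusted p = 0.0104), and Tfr2, a related receptor, differed by 1.55 with an adjusted p of 0.135.

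All 8 membrane genes read higher in cystic duct, and 6 of 8 passed the threshold. Slc4a1, the band 3 anion exchanger, read 13.41 and 12.20 in cystic duct, against 10.30 and 8.92 in gallbladder, and differed by 3.20 ± 0.56, or 9.16-fold (adjusted p = 0.0105). Rhag read 10.95 and 9.02 in cystic duct, against 7.25 and 5.09 in gallbladder, a difference of 3.81 ± 0.81 (adjusted p = 0.0201). Neither pair of groups overlapped. Rhd, its Rh partner, differed by 3.47 (adjusted p = 0.0165), Ermap, a blood group protein of the erythroblast membrane, by 2.96 (adjusted p = 0.0285), Kel, the Kell blood group protein, by 2.82 (adjusted p = 0.022) and Ank1, the ankyrin that ties band 3 to spectrin, by 2.03 (adjusted p = 0.0133). Epb42, which binds band 3 and ankyrin, differed by 2.62 with an adjusted p of 0.0665, and Sptb by 0.90 with an adjusted p of 0.118. The other late genes were called higher: Hemgn, a nuclear protein of blood progenitors, by 3.29 (adjusted p = 0.0129), Trim10, a ring finger protein needed for terminal red cell maturation, by 3.28 (adjusted p = 0.00679) and Tspo2, a porphyrin and cholesterol handling protein of erythroblasts, by 2.30 (adjusted p = 0.0248).

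**Figure D2:**
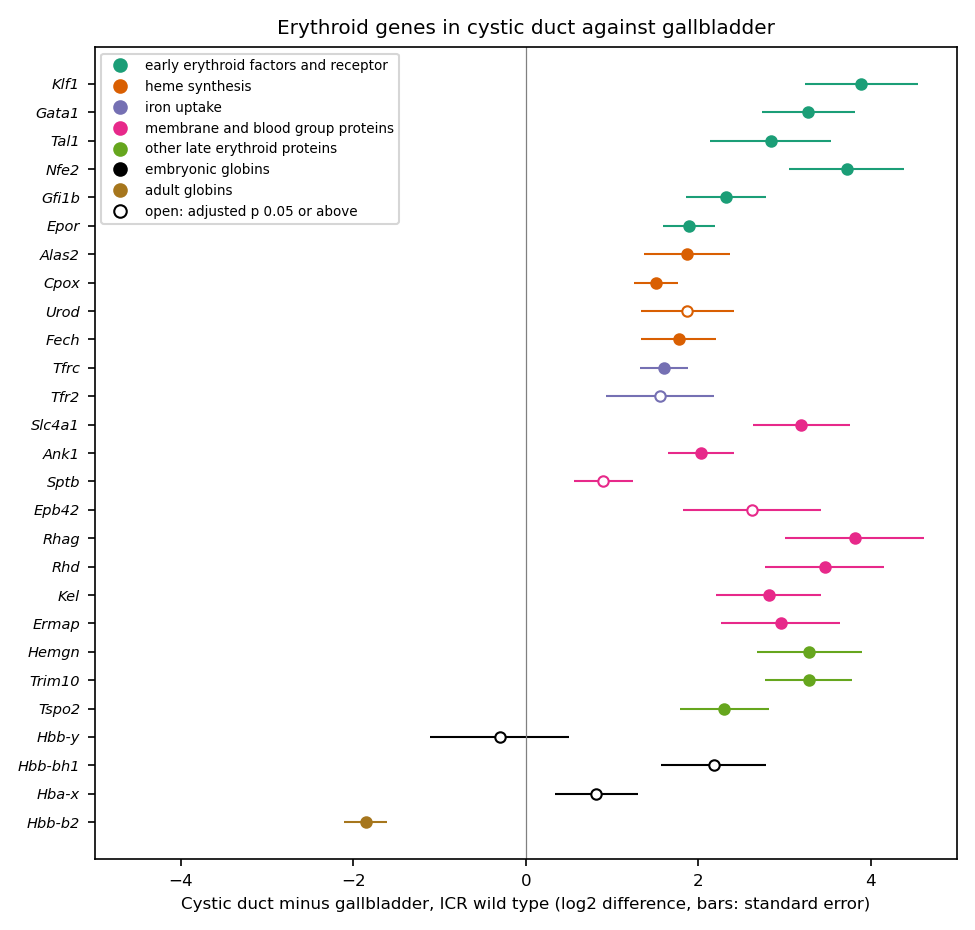
Log2 difference of ICR wild type cystic duct over gallbladder (horizontal axis, bars are standard errors) for the 27 tested genes, coloured by role, with open points at an adjusted p of 0.05 or above. Klf1 lies furthest to the right at 3.89, and Hbb-b2 and Hbb-y lie left of 0 at -1.86 and -0.30.

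Of the embryonic globins, 0 of 3 passed, and 1 had an unadjusted p under 0.05 in limma. Hbb-y, the embryonic beta-like globin, read 11.43 and 9.61 in cystic duct, against 11.03 and 10.61 in gallbladder, so that the groups overlapped (difference -0.30 ± 0.81, adjusted p = 0.818). Hba-x, the embryonic alpha-like globin, read 7.80 and 7.93 in cystic duct, against 7.02 and 7.07 in gallbladder (difference 0.82, adjusted p = 0.279). Hbb-bh1, a further embryonic beta-like globin, read 8.99 and 7.72 in cystic duct, against 6.23 and 6.12 in gallbladder, and differed by 2.18 ± 0.61, with an adjusted p of 0.0502. The duct arrays lay above the gallbladder arrays for Hba-x and Hbb-bh1 alone.

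The adult beta globin gene Hbb-b2 was called lower, but its 2 probe sets disagreed. The one used for the test read 4.49 and 4.11 in cystic duct, against 6.43 and 5.88 in gallbladder (difference -1.86 ± 0.25, adjusted p = 0.00422). The other, of a type that can cross-hybridize with related transcripts, read 10.61 and 11.19 in cystic duct, against 9.84 and 9.90 in gallbladder. With the mean of the 2 probe sets the difference for Hbb-b2 was -0.41 (adjusted p = 0.17). Adult globin genes share near-identical sequence, so that signal from the related copies cannot be told apart here.

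These calls rest on the 10-array fit, in which all groups share an estimate of spread. With only the 4 arrays compared, and with array weights, 0 of 27 genes were called, as were 0 of all genes tested. With the values as deposited, 11 of 27 were called, where 12.9% of all genes were. Of the 20 called genes, 8 stayed called without each of the 10 arrays in turn, and 12 lost the call without at least 1 array. The median over the 27 genes was 1.54 without cystic duct replicate 1 and 3.04 without cystic duct replicate 2. Against all 8 gallbladder arrays, cystic duct replicate 1 was higher for 24 of the 27 genes, where 25.3% of all genes were, and cystic duct replicate 2 for 11, where 32.5% of all genes were.

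Of 71 other red cell genes tested, 30 were called higher and 1 lower, where 5.73% and 8.61% of all genes were, with role medians between 0.98 for transcription factors and 1.60 for membrane genes (a globin gene aside). Cldn13, a claudin of erythroblasts, differed by 3.73 (adjusted p = 0.0127), Icam4, the Landsteiner-Wiener blood group protein, by 3.66 (adjusted p = 0.0175) and Car1, carbonic anhydrase of red cells, by 3.06 (adjusted p = 0.0223). Tmcc2, a membrane protein of erythroblasts, differed by 2.83 (adjusted p = 0.0171) and Ctse, the aspartic protease cathepsin E, by 2.48 (adjusted p = 0.00752). The lower call was Bach1, a heme-sensing repressor (-0.60, adjusted p = 0.0407).

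Markers of hepatocytes and of granulocytes and mast cells were higher in cystic duct as well. Of 18 hepatocyte markers tested, 16 were called higher in cystic duct, where 5.73% of all genes were, with a median difference of 3.48. Their summed linear signal was 190991 and 143160 in cystic duct, against 38550 and 29800 in ICR wild type gallbladder. Of 10 granulocyte and mast cell markers, 4 were called higher, with a median difference of 2.57, and their summed signal was 19291 and 14294 in cystic duct, against 4232 and 1309 in gallbladder. The medians of the other marker lists lay between -1.34 for smooth muscle and 0.60 for megakaryocytes and platelets, with macrophages at -0.17. The part of these cells in the result was not tested.

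In gallbladder, Sox17+/- arrays read higher than wild type for most of the list, but 0 of 27 genes passed in the mean of the strains, where 0.0204% of all genes were called higher and 0.034% lower. At an unadjusted p under 0.05 in limma, 3 of 27 were higher (Klf1, Hemgn and Trim10), where 1.72% of all genes were, and 0 were lower, where 1.83% were. The change was above 0 for 26 of 27 genes, against 49.7% of all genes, and its median was 0.69, against -0.001 over all genes. Without ICR wild type gallbladder replicate 2 the median was 0.44. Sox17+/- samples lay wholly above wild type samples over both strains for 1 gene, Fech, where 1.91% of all genes did so. The groups of ICR and B6 in these comparisons are separate arrays.

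Klf1 read 9.43 and 10.17 in B6 Sox17+/- gallbladder, against 8.76 and 8.72 in B6 wild type, and 9.71 and 8.61 in ICR Sox17+/- gallbladder, against 8.93 and 7.12 in ICR wild type. The B6 groups were apart and the ICR groups overlapped. The mean difference was 1.10 ± 0.47 (log2, standard error; adjusted p = 1). Hemgn read 10.20 and 10.85 in B6 Sox17+/- gallbladder, against 9.54 and 9.54 in B6 wild type, and 10.01 and 8.98 in ICR Sox17+/- gallbladder, against 9.34 and 7.57 in ICR wild type, a mean difference of 1.01 ± 0.43 (adjusted p = 1). Slc4a1 read 10.85 and 11.59 in B6 Sox17+/- gallbladder, against 10.30 and 10.34 in B6 wild type, and 10.95 and 9.99 in ICR Sox17+/- gallbladder, against 10.30 and 8.92 in ICR wild type (mean difference 0.88, adjusted p = 1).

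By role, the median difference over the strains was 0.81 for the early factors, 0.43 for heme synthesis, 0.28 for iron uptake, 0.88 for membrane genes, 0.84 for the other late genes and 0.32 for the embryonic globins. The sizes overlap across roles, with single genes between -0.16 for Hbb-b2 and 1.10 for Rhag. Within strains, 20 of 27 genes had Sox17+/- arrays wholly above wild type in B6, where 20.4% of all genes did, and 6 of 27 in ICR, where 17.9% did. The medians were 0.67 in B6 and 0.50 in ICR, and 0 genes passed in either, where 0.0068% of all genes were called lower and 0% higher in each. The B6 median was 1.09 without Sox17+/- replicate 3 and 0.30 without Sox17+/- replicate 4. The ICR median was 1.07 without Sox17+/- replicate 2, 0.75 without wild type replicate 1 and 0.16 without wild type replicate 2. The change was above 0 for 27 of 27 genes in B6, where 51.3% of all genes were, and for 26 in ICR, where 47.5% were. At an unadjusted p under 0.05, 1 gene was higher in B6 (Cpox, 0.64), where 0.728% of all genes were, and 1 in ICR (Tspo2, 1.25), where 3.12% were. By the same measure 0 were lower in B6, where 0.578% were, and 0 in ICR, where 2.16% were. The difference of the effect between strains had a median of -0.07, between -0.45 and 0.49 when each array was left out, and was above 0 for 10 of 27 genes, where 53.2% of all genes were, and 0 of 27 genes passed or had an unadjusted p under 0.05.

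**Figure D3:**
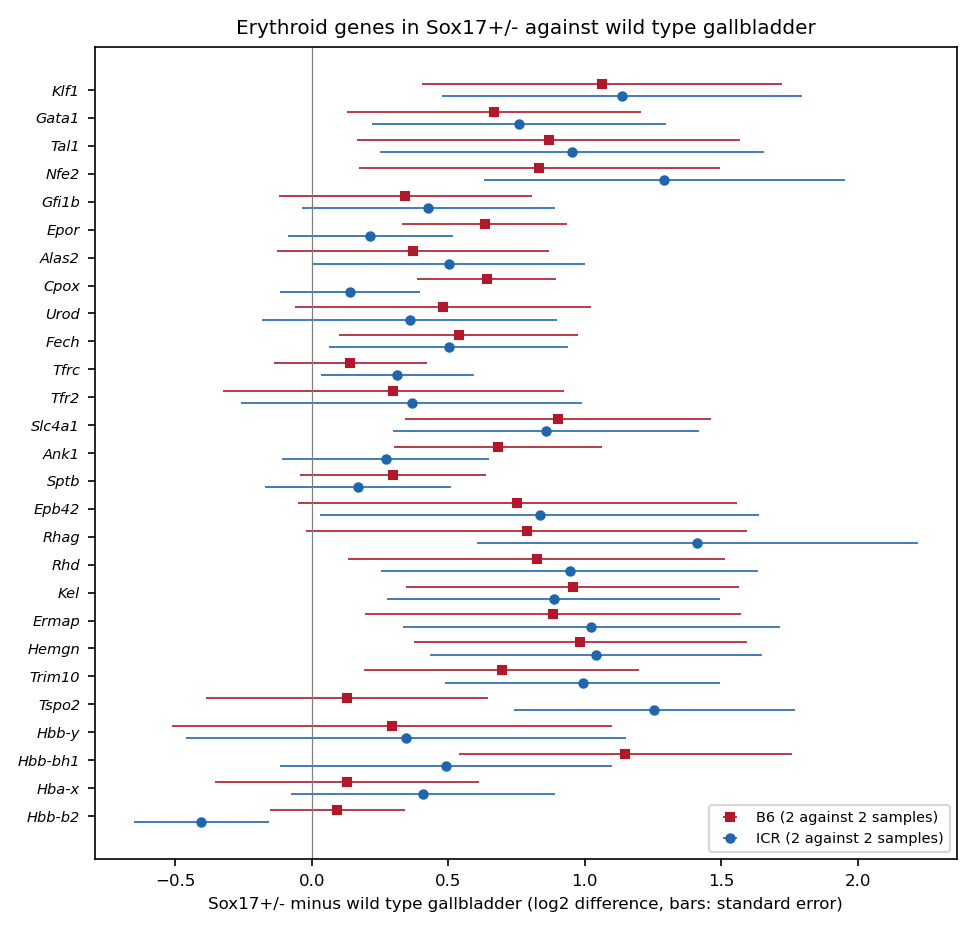
Sox17+/- minus wild type gallbladder (log2 difference, horizontal axis, bars are standard errors) for the 27 genes, squares for B6 and circles for ICR, 2 against 2 arrays in each. Hbb-b2 in ICR is the only point left of 0, at -0.41.

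Among the 71 other red cell genes, 0 passed in the mean of the strains and 6 were higher at an unadjusted p under 0.05, where 0.0204% and 1.72% of all genes were, and 62 had a change above 0, where 49.7% of all genes did. The 3 with the smallest p were Cited2, a transcriptional co-regulator, at 0.43 (adjusted p = 0.404), Ctse at 1.13 (adjusted p = 0.46) and Kcnn4, the calcium-gated potassium channel of red cells, at 0.97 (adjusted p = 0.669). Kcnn4 read 8.96 and 9.01 in B6 Sox17+/- gallbladder, against 8.18 and 8.02 in B6 wild type, and 8.83 and 8.81 in ICR Sox17+/- gallbladder, against 8.03 and 7.51 in ICR wild type, so that the genotypes did not overlap in either strain. Hepatocyte markers had a median difference of 0.79 over the strains, with 0 of 18 called, and their summed signal was 61175 and 63337 in B6 Sox17+/- gallbladder, against 67943 and 49214 in B6 wild type, and 71293 and 56880 in ICR Sox17+/- gallbladder, against 38550 and 29800 in ICR wild type. Granulocyte and mast cell markers had a median of 0.63, with 0 of 10 called. At an unadjusted p under 0.05 in limma, 10 of 18 hepatocyte markers were higher over the strains, where 1.72% of all genes were. Within strains, 13 of 18 were higher in ICR, where 3.12% of all genes were, and 0 of 18 in B6, where 0.728% were. The hepatocyte medians were 1.34 in ICR and 0.17 in B6. Over the strains, 5 of 9 skeletal muscle markers and 1 of 10 granulocyte and mast cell markers were higher at an unadjusted p under 0.05. Skeletal muscle markers had a median of 1.11, and their summed signal of 5351 in B6 Sox17+/- replicate 3 stood above the 674 in replicate 4, against 408 and 422 in B6 wild type. The part of these cells in the values was not tested.

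B6 gallbladders read higher than ICR gallbladders for 26 of 27 genes, where 60.4% of all genes were higher, with a median of 0.76 against 0.05 over all genes. That median was 0.51 when ICR Sox17+/- replicate 2 was left out, and 0.48 when replicate 2 of ICR wild type was. Here 0 of 27 genes passed in the 10-array fit, where 0.408% of all genes were called higher and 0.939% lower, and 10 were higher at an unadjusted p under 0.05, where 7.49% of all genes were, and 0 lower, where 5.25% were. The strains did not overlap for 2 genes, both higher in B6, where 12.5% of all genes were higher and 6.84% lower without overlap. Cpox read 8.06, 8.41, 7.73 and 7.46 in B6, against 7.13, 7.23, 7.14 and 6.94 in ICR (Sox17+/- before wild type in each), without overlap, a difference of 0.81 ± 0.18. Epb42 read 7.06, 8.04, 6.96 and 6.63 in B6, against 6.18, 5.89, 5.84 and 4.56 in ICR, also without overlap, a difference of 1.56 ± 0.57. With the 8 gallbladder arrays alone, 4 genes were called higher in B6: Cpox (adjusted p = 0.01), Tspo2 (adjusted p = 0.0282), Epb42 (adjusted p = 0.0299) and Nfe2 (adjusted p = 0.0416). In that fit 8.92% of all genes were called in either direction. The same number was called without either cystic duct array, and 7 with array weights, where 10.9% of all genes were called. The direction for Cpox turned with the mean of its probe sets, at -0.17.

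Among other red cell genes, 3 of 71 were called lower in B6 and 0 higher, where 0.939% and 0.408% of all genes were. Bcl2l11, a pro-apoptotic gene, read 8.72, 8.08, 8.39 and 8.22 in B6, against 9.71, 9.39, 9.70 and 9.73 in ICR, without overlap (difference -1.28, adjusted p = 0.016). Zbtb7a, a repressor of fetal globin known from human cells, differed by -2.62 (adjusted p = 0.0052), and Bcl11a, a repressor of embryonic and fetal globin genes, by -1.23 (adjusted p = 0.0317). The strains differ in sequence, and whether that touches these probe sets was not tested. Granulocyte and mast cell markers had a median difference of 1.51 between the strains, with 0 of 10 called. At an unadjusted p under 0.05 in limma, 7 of these 10 markers were higher in B6, where 7.49% of all genes were. The summed signal of all 10 was 19723, 11810, 11084 and 9426 in B6, against 10121, 2029, 4232 and 1309 in ICR.

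**Figure D4:**
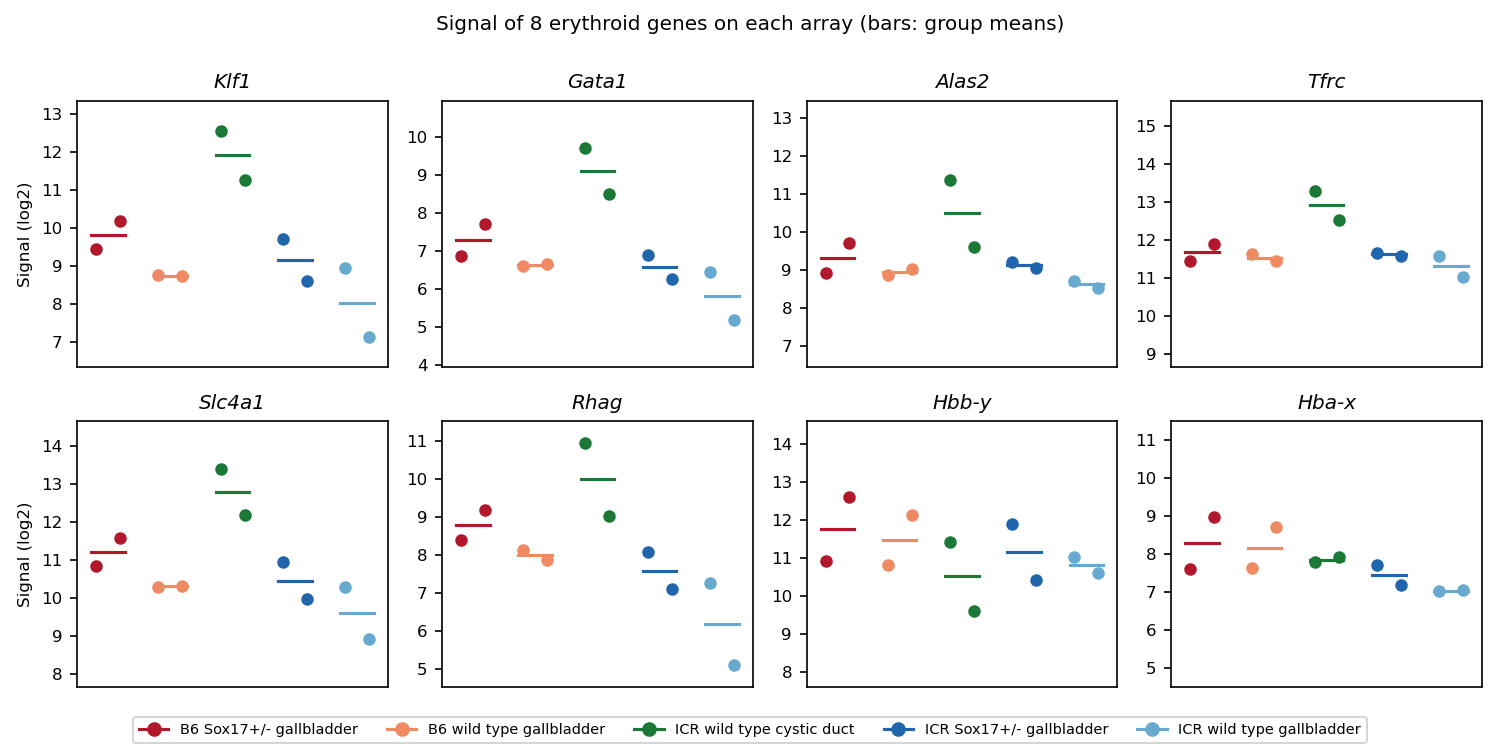
Signal (log2, vertical axis) of 8 genes on each of the 10 arrays, with bars at group means. For Klf1, Gata1, Slc4a1 and Rhag the cystic duct arrays are among the highest, while for Hbb-y and Hba-x the highest array is B6 Sox17+/- gallbladder replicate 4, at 12.60 and 8.99.

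Over all 10 arrays, Hbb-y and Hba-x ordered the samples differently from most of the list. Over the 8 gallbladder arrays they correlated with the other genes at 0.77 and 0.76. Hbb-bh1 correlated with the other genes at 0.93 over the 10 arrays and was highest in cystic duct replicate 1. Hbb-y read 10.93 and 12.60 in B6 Sox17+/- gallbladder, 10.82 and 12.13 in B6 wild type gallbladder, 11.43 and 9.61 in cystic duct, 11.91 and 10.42 in ICR Sox17+/- gallbladder and 11.03 and 10.61 in ICR wild type gallbladder. Hba-x read 7.61 and 8.99 in B6 Sox17+/- gallbladder, 7.63 and 8.71 in B6 wild type gallbladder, 7.80 and 7.93 in cystic duct, 7.72 and 7.19 in ICR Sox17+/- gallbladder and 7.02 and 7.07 in ICR wild type gallbladder. For both genes replicate 4 was the higher of the pair in each B6 group, and replicate 4 of B6 Sox17+/- gallbladder was the highest of the 10 arrays, as it was for 6.74% of all genes. Over the 8 gallbladder arrays Hbb-y correlated with Hba-x at 0.89 and with Klf1 at 0.66, and over all 10 arrays these values were 0.65 and 0.06.

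In B6 wild type gallbladder, where the rest of the red cell list hardly differed between replicates, the embryonic globins did. Replicate 4 exceeded replicate 3 by 1.31 for Hbb-y, 1.08 for Hba-x and 0.78 for Hbb-bh1, whereas the 23 other genes (Hbb-b2 aside) differed by between -0.33 and 0.28, with a median of 0.01. Out of 14696 genes, Hbb-y had the largest excess in replicate 4, Hba-x ranked 2 and Hbb-bh1 ranked 7. In B6 Sox17+/- gallbladder the excesses of replicate 4 were 1.68, 1.39 and 1.33, which ranked 1, 2 and 3, and the 23 other genes had a median excess of 0.70. In each of these B6 pairs all 3 embryonic globins were over 0.5 log2 units higher in replicate 4, where 1.37% of all genes were in Sox17+/- and 0.388% in wild type.

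**Figure D5:**
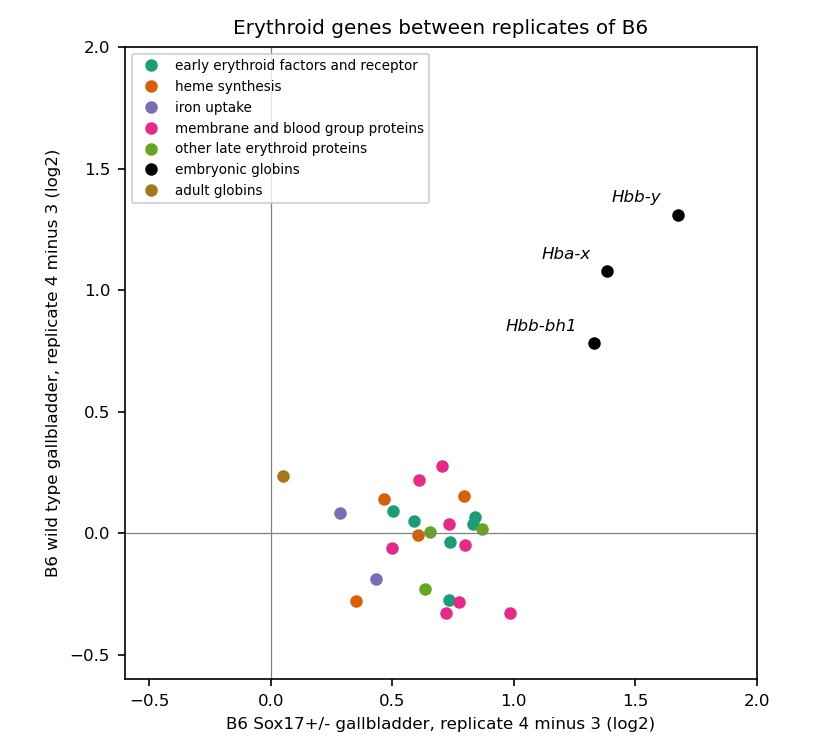
Replicate 4 minus replicate 3 (log2) in B6 Sox17+/- gallbladder (horizontal axis) and in B6 wild type gallbladder (vertical axis), a point for each of the 27 genes, coloured by role. The 3 embryonic globins stand apart at the upper right, at 1.68 and 1.31 for Hbb-y, while the vertical values of the 23 other genes (Hbb-b2 aside) lie between -0.33 and 0.28.

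The ICR pairs gave a different picture. In ICR Sox17+/- gallbladder replicate 1 exceeded replicate 2 by 1.48 for Hbb-y and 1.20 for Hbb-bh1, ranks 18 and 33 among all genes, and by 0.53 for Hba-x, beside a median of 0.62 for the 23 other genes. In ICR wild type gallbladder, where replicate 2 minus replicate 1 had a median of -1.16 over the 23 others, Hbb-y was 0.42 lower there and Hbb-bh1 0.12 lower, and Hba-x was 0.05 higher. In cystic duct, replicate 2 was 1.82 below replicate 1 for Hbb-y and 1.28 below for Hbb-bh1, while Hba-x was 0.12 above. Replicate 2 minus replicate 1 had a median of -1.53 there over the 23 others. The correlation of Hbb-bh1 with Klf1 over the 10 arrays was 0.88, beside 0.06 for Hbb-y.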

How the data were processed

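Affymetrix arrays of 10 samples were analysed. The values are log2 signals per probe set as deposited by the authors, per the labels. How they were background corrected and normalized is not given in the sources used here. The labels' protocols name a Trizol extraction and biotin-labelled cRNA. No sample column was left unused. Of 45101 probe sets, 64 controls were left out and 34945 map to 1 gene in the platform table, while 932 map to several genes and 9160 are unnamed there. Values were quantile normalized. Each of 18193 genes was read by its brightest probe set with 1 gene, those with names in _x_at only where no other was present, and genes under the 30th percentile of mean signal (4.47) were left out, which left 14696.

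Titles and label values gave the groups (the values for genotype and stage stand under each other's tags). In limma 3.58.1 under R 4.3.3, group means were fitted with a variance trend, 5 residual degrees of freedom and Benjamini-Hochberg adjustment over all genes tested, with a threshold of 0.05, two-sided. The 6 comparisons were Sox17+/- against wild type gallbladder over both strains, in B6 and in ICR, the difference between strains of that effect, cystic duct against gallbladder and B6 against ICR. All listed genes were accounted for; of the other red cell genes, those past the threshold were named, up to 5 in each direction, or the 3 with the smallest p where none passed over both strains. The genes and lists were chosen with earlier results of these data known. Alternatives were the normalization, the filter, the probe sets of a gene, the variance model, the samples in the fit, the replicate number as a block and leaving out each sample. The steps were tested on simulated data. The number of arrays limits the precision. Promoters came from RefSeq on GRCm38.p6 and were searched on both strands in the 250 bases before each start. The plots used matplotlib 3.10.9, pandas 2.3.3 and Python 3.11.15.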

Additional observations from a re-analysis of the deposited data

How the results depend on the processing

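For the Sox17+/- comparisons (over both strains, in B6, in ICR and their difference), the count of called red cell genes was 0 under every alternative tried, while the median changes depended on single samples. When each sample was left out, the median ran from 0.44 to 0.85 over both strains, from 0.30 to 1.09 in B6, from 0.16 to 1.07 in ICR and from -0.45 to 0.49 for their difference. For cystic duct against gallbladder, the count of 20 became 11 with the values as deposited, 0 with array weights and 0 with only the groups compared, and ran from 8 to 25 when each sample was left out; the median ran from 1.54 to 3.04. Of all genes tested for cystic duct, 14.3% were called in the 10-array fit and 12.9% with the values as deposited. With array weights or only the groups compared, 0 of all genes were called. When a sample was left out, the share of all genes called changed too, and 1 group kept a single array. The range of counts for cystic duct is therefore not particular to the red cell genes. For B6 against ICR the count of 0 became 1 with every probe set on its own, where 5.42% of all probe sets tested were called. It became 7 with array weights, where 10.9% of all genes were called. With the gallbladder arrays alone or only the groups compared it became 4, where 8.92% were. The median ran from 0.48 to 0.97 when each sample was left out. Fewer samples enter the fits with only the groups compared; the cause of the other shifts was not tested. Alternatives for Sox17 were added after the data were seen. Its change passed the threshold at -1.46 when its probe sets were averaged (adjusted p = 0.00978) and at -1.40 with array weights (0.00132) and with the gallbladder arrays alone or only the groups compared (0.00403), and ran from -1.47 to -1.33 when each sample was left out.

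Signs turned for changes that had not passed. When each sample was left out, Hbb-y ran from -0.10 to 0.74 and Hba-x from -0.0784 to 0.61 over both strains, Hbb-y from -0.55 to 1.13 and Hba-x from -0.56 to 0.82 in B6, and Hbb-y from -1.21 to 0.61 in cystic duct. Using the average over probe sets, Sptb was -0.0433 in cystic duct and Cpox -0.17 for B6 against ICR.

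With replicate numbers entered as a block, 23 genes were called for cystic duct, where 11.7% of all genes were, and 0 for each other comparison. The median for cystic duct stayed at 2.30. The correlation of replicate differences was 0.38 between the ICR genotypes, 0.22 between the B6 genotypes, and 0.09 and 0.07 between cystic duct and the ICR gallbladder groups. The labels tie the numbers to no animal, litter or day, and the correlations were not over 0.1 in every pair of groups, so that the numbers were not taken to pair the samples; whether gallbladder samples of a strain share more than a number was not tested.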
